A study of Mus musculus with 4 samples.

Results

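Contraction of smooth muscle is set by the balance between a kinase and a phosphatase that act on the regulatory light chain of myosin. The 8 genes described here encode that pair and some of its relatives: the myosin light chain kinase genes Mylk, Mylk3 and Mylk4, the phosphatase targeting subunit genes Ppp1r12a, Ppp1r12b and Ppp1r12c, the catalytic subunit gene Ppp1cb and the phosphatase inhibitor gene Ppp1r14a. They were selected on gene name and known function, with their knockout and wild-type values in these libraries already known. All 8 were found by name among the 39179 genes of the deposited table. Because this comparison was known when the genes were selected, their values are given as a description and carry no test.

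Samples labelled as primary smooth muscle cells from the mouse aorta were profiled by RNA sequencing. There were 2 libraries from knockout mice (Sm-Yap/Taz-KO) and 2 from wild-type mice. Markers of other cell types, given below, were also counted in each library of both groups. Both groups are labelled as taken 18 days after tamoxifen. In the knockout, the co-activator genes Yap1 (YAP) and Wwtr1 (TAZ) are the targets named by the genotype, and the strain name carries the prefix Sm. For the driver of the recombinase, the age of the mice and any pooling of animals, the value is not given in the sources used here. The labels do not say whether replicate libraries came from different animals, and each p-value therefore covers no more than library-to-library spread, possibly technical. The normalized counts summed to between 13279332 and 14519178 per library, and the reads on genes were estimated at 11800000 to 16800000. Yap1 was at 947 and 962 in knockout libraries, compared with 1966 and 1877 in wild-type ones, and Wwtr1 at 2848 and 2466 against 3423 and 4016. A count over a whole gene includes reads outside a deleted part.

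Calcium entering a smooth muscle cell binds calmodulin, which activates the kinase encoded by Mylk. The kinase phosphorylates the regulatory light chain and so allows myosin to pull on actin. Myosin phosphatase reverses this: its catalytic subunit is held to myosin by a targeting subunit of the MYPT family, of which MYPT1 (Ppp1r12a) is the form best known in smooth muscle. The small protein CPI-17 (Ppp1r14a), once phosphorylated by protein kinase C, blocks the catalytic subunit. This input keeps the light chain phosphorylated at a given level of calcium. Mylk3 encodes the kinase of heart muscle, while Mylk4 encodes a related kinase that is less studied, and Ppp1r12b encodes MYPT2, best known from striated muscle.

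The start regions of these genes were read from RefSeq (GRCm38.p6), which gave 10 windows of 300 bases for the 8 genes, from 250 bases before each start to 50 after it. The windows were searched on both strands for GGAATG, the core bound by the TEAD factors through which YAP and TAZ act. They were also searched for the CArG box, the site of serum response factor, in its strict form CCWWWWWWGG (W is A or T). No window of the 8 genes held a CArG box of this form, which is present in 1.63% of the 32851 windows of the table. At that share nothing is read from its absence in 10 windows, and variant forms were not searched. For Mylk only the window at its RefSeq start was searched. A coding start in GENCODE M21 that lies 209857 bases further into the gene was not, so the search does not cover every start of Mylk. At least 1 TEAD motif is present in 14.7% of all windows. Of the 8 genes, Mylk, Mylk3, Ppp1cb and Ppp1r12b had it in 1 window each. In the window at the downstream start of Ppp1r12b the motif occurs 3 times, and 0.131% of all windows hold it 3 or more times. This start lies 152098 bases inside the gene. Its motifs begin 175, 85 and 58 bases before the start, and that of Mylk begins 158 bases before its start. A match is a description of the letters and not evidence of binding.

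The 4 windows below are those of the gene with the largest difference between the groups (Mylk4), of the main kinase gene (Mylk) and of both starts of Ppp1r12b, whose windows differ in motif content. Each is written 5′ to 3′ on the strand of the gene, with TEAD motifs in capitals. The Mylk4 window is at chr13:32783915-32784214 (minus strand), that of Mylk at chr16:34784700-34784999 (plus strand), and those of Ppp1r12b at chr1:134955891-134956190 (upstream start) and chr1:134803793-134804092 (downstream start), both on the minus strand. The nearest coding start of Mylk4 in GENCODE M21 lies 2248 bases further into the gene than the RefSeq start shown. At the downstream start of Ppp1r12b, the nearest GENCODE start is 9 bases away and belongs to a retained-intron transcript.
Mylk4: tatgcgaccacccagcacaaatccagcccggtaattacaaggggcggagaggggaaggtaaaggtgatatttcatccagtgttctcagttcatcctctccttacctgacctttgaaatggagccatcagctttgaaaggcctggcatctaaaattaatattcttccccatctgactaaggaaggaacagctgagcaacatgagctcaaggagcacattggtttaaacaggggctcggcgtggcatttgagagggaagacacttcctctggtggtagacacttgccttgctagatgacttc
Mylk: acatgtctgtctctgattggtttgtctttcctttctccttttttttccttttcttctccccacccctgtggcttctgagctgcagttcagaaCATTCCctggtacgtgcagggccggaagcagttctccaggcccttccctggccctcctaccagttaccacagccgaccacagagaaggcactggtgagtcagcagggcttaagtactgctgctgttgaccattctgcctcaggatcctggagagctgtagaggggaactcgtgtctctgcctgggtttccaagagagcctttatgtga
Ppp1r12b upstream: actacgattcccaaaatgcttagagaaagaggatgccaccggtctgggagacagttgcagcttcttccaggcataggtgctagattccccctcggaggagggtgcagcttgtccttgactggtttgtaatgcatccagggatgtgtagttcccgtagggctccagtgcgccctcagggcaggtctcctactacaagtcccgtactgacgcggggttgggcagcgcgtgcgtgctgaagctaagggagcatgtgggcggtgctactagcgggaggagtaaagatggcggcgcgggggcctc
Ppp1r12b downstream: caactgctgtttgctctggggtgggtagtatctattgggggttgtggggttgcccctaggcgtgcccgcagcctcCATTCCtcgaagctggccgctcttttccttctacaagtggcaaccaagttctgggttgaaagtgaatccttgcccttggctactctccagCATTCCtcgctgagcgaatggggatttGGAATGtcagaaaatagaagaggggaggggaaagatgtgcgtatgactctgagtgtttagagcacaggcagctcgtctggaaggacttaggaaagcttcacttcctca

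Among the kinases, Mylk4 differed most. Mylk4 (chromosome 13, 32700834 to 32783954, minus strand, GRCm38) was represented by 1090 and 1023 normalized counts in knockout libraries, compared with 14786 and 13526 in wild-type ones. The groups were far apart and the libraries within each group lay close together, with a ratio of 1.07 between the knockout pair and 1.09 between the wild-type pair. The means were 1057 ± 47.4 and 14156 ± 891 (SD, n = 2), so that 7.46% of the wild-type level was left. The log2 fold change, on log2(count + 1) and taken as knockout minus wild type throughout, was -3.74 (SE 0.10). By this value Mylk4 stood 14th from the most negative of the 15058 genes with a mean count of at least 10. No annotated exon of another gene overlaps its exons in GENCODE M21. As in every bulk RNA value here, fewer cells of a type and less RNA per cell cannot be told apart.

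Mylk, the calmodulin-dependent kinase of smooth muscle (chromosome 16, 34745210 to 35002420, plus strand), was at 15542 and 11653 in knockout libraries, compared with 33731 and 28000 in wild-type ones. The groups did not overlap, and the log2 fold change was -1.19 (SE 0.18). The 2 libraries of a group differed more from each other than for Mylk4, by factors of 1.33 (knockout) and 1.20 (wild type). This gene yields a long and a short kinase and, from a start near its 3′ end, telokin, a protein without kinase activity. A gene count adds these products together, and 6.9% of the merged exon length is overlapped by opposite-strand genes.

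Mylk3, the heart muscle kinase gene (chromosome 8, 85324303 to 85386345, minus strand), was close to absent, at 9 and 10 in knockout libraries, compared with 6 and 1 in wild-type ones. It lay under the filter on low counts and no fold change is given. Markers of striated muscle were low in the same libraries. Summed over 12 such genes, including the actinin gene Actn2, they came to 671 and 476 counts in knockout libraries, compared with 431 and 459 in wild-type ones, and 5 of the 12 were under the filter. The ventricular light chain gene Myl2 was at 21 in knockout library 1 and at 0 in the other 3.

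**Figure D1:**
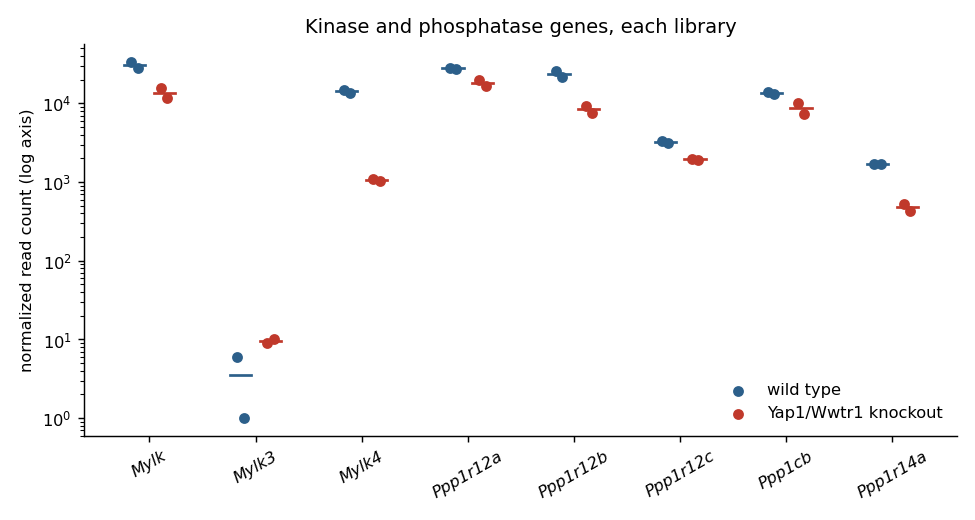
Normalized read counts (log axis) of the 8 genes in each library, with wild-type libraries in blue, knockout libraries in red and a bar at each group mean (n = 2). In every gene but Mylk3 both knockout points lie below both wild-type points, with the widest gap at Mylk4 (1057 against 14156).

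The phosphatase genes were all lower in the knockout, by unequal amounts. The largest difference among the targeting subunits was in Ppp1r12b, which encodes MYPT2 (chromosome 1, 134754658 to 134955942, minus strand), with 9312 and 7438 counts in the knockout against 25500 and 21469 in the wild type. Its log2 fold change was -1.49 (SE 0.16), which left 35.7% of the wild-type mean. The gene count does not separate transcripts from the upstream and downstream starts, and 4.7% of the merged exon length is overlapped by an opposite-strand gene. Ppp1r12a, which encodes MYPT1 (chromosome 10, 108162193 to 108284475, plus strand), was at 19817 and 16524 against 28396 and 27664. The groups again did not overlap, but 64.8% of the wild-type mean was left (log2 fold change -0.63 with SE 0.13). That value was -0.32 after quantile normalization. For Ppp1r12c, which encodes the MBS85 subunit (chromosome 7, 4481520 to 4501680, minus strand), the counts were 1948 and 1932 against 3368 and 3106 (log2 fold change -0.74 with SE 0.10). The pair of knockout values was nearly equal, and 59.9% of the wild-type mean was left.

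The catalytic subunit gene Ppp1cb (chromosome 5, 32458843 to 32517433, plus strand) had 10197 and 7236 counts in knockout libraries, compared with 14061 and 13117 in wild-type ones. Its knockout libraries differed from each other by a factor of 1.41, the widest spread of the 7 genes above the filter. The log2 fold change of -0.66 (SE 0.18) became -0.41 without knockout replicate 2. In the annotation the gene Gm43312 covers 17.5% of the merged exon length of Ppp1cb on the same strand. The inhibitor gene Ppp1r14a (CPI-17, chromosome 7, 29289308 to 29293801, plus strand) was at 529 and 434 in knockout libraries, compared with 1688 and 1718 in wild-type ones. At 28.3% of the wild-type mean and a log2 fold change of -1.83 (SE 0.13), it showed the second largest difference after Mylk4. The kinase and the inhibitor of the phosphatase, whose products act towards a phosphorylated light chain, were lower in the same libraries as the phosphatase itself.

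Mylk3 apart, all 7 genes were lower with groups that did not overlap, which holds for 32.1% of all tested genes. Of these 7, 4 had a log2 fold change of -1 or lower, against 5.66% of tested genes. As these genes were selected with the comparison known, nothing is read from those counts. Their median log2 fold change was -1.19, and the median of all tested genes was -0.02. Knockout library 1 was the higher of the knockout pair for all 7, and wild-type library 1 the higher of its pair for 6. This was not particular to the set. The summed counts of 10 smooth muscle markers were also higher in knockout library 1, at 184719 against 141274 in knockout library 2.

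Levels of different genes were compared per kb of merged exon length. In the wild type the order of mean counts per kb was Ppp1r12a (3495), Mylk (2740), Mylk4 (1841), Ppp1r12b (1567), Ppp1r14a (1246), Ppp1cb (1245), Ppp1r12c (653) and Mylk3 (0.817). Neighbours in this order did not overlap in their libraries, with the exception of Ppp1r14a and Ppp1cb. The values of Ppp1r14a, 1235 and 1257 counts per kb, lay between those of Ppp1cb, 1288 and 1202. In the knockout Mylk4 stood in position 7 of the 8, at 137 counts per kb, below Ppp1r14a at 352 and Ppp1r12c at 391. Scaled by the longest coding transcript instead, Mylk4 was in wild-type position 4 in place of 3. Ppp1r12b, at 2657 against 2541 counts per kb, then stood above it, but their wild-type libraries overlapped (2885 and 2429 against 2654 and 2428). On that scale Ppp1r14a, at 1777 and 1808, lay below Ppp1cb, at 2358 and 2200.

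The make-up of the kinase genes and of the targeting subunit genes in the set differed between the groups on this per-kb scale. Mylk2, a related kinase gene outside the set and named after its values were seen, is not part of these sums. It was at 546 and 596 counts in knockout libraries, compared with 861 and 747 in wild-type ones. Mylk4 made up 39.1% and 41.4% of the summed level of the 3 kinase genes in the wild-type libraries and 9.3% and 11.4% in the knockout libraries. Mylk made up most of the summed level in each library, with the larger share in the knockout. The Mylk count includes telokin, so these are shares of gene counts and not of kinase transcripts alone. Among the targeting subunits, the share of Ppp1r12b was 28.7% and 26.0% in the wild type and 17.8% and 16.8% in the knockout. The share of Ppp1r12a was 59.8% and 62.6% in the wild type and 70.9% and 69.9% in the knockout. The share of Ppp1r12c overlapped between the groups, at 11.5% and 11.4% (wild type) against 11.3% and 13.2% (knockout).

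**Figure D2:**
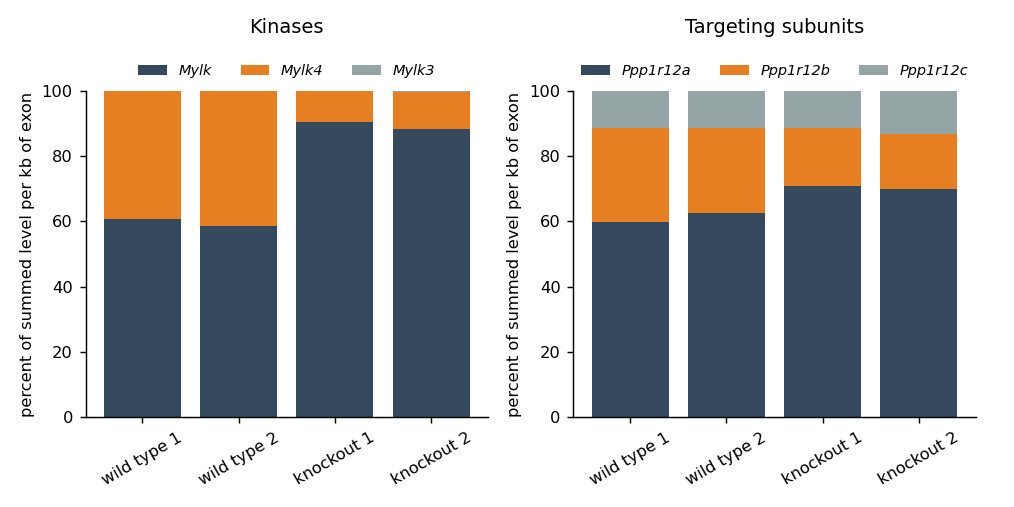
Share of each gene in the summed level per kb of merged exon length, for the 3 kinase genes (left) and the 3 targeting subunit genes (right), 1 bar per library. The Mylk4 share was on average 40.3% of the wild-type level and 10.3% of the knockout level, while Ppp1r12c stood at 11.4% and 12.2%.

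Ratios within a library set single kinase and phosphatase genes against each other without regard to library scaling. The ratio of Mylk to Ppp1r12a counts was 0.784 and 0.705 in knockout libraries, compared with 1.19 and 1.01 in wild-type ones, so the groups did not overlap. Mylk to Ppp1cb behaved alike, at 1.52 and 1.61 against 2.40 and 2.13. The direction depends on the subunit taken: Ppp1r12b kept 35.7% of its wild-type mean, less than the 44.1% that Mylk kept. The inhibitor also differed in proportion: for every 100 counts of Ppp1cb there were 5.19 and 6.0 of Ppp1r14a in knockout libraries, compared with 12.0 and 13.1 in wild-type ones. By contrast the ratio of Ppp1r12a to Ppp1cb, the targeting and catalytic subunits of one enzyme, overlapped between the groups, at 1.94 and 2.28 against 2.02 and 2.11. These ratios compare gene counts, which for Mylk include telokin, and not enzyme activity.

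Markers of cell types were read in the same libraries. All 10 smooth muscle markers, among them Acta2 (smooth muscle actin) and Myh11 (smooth muscle myosin heavy chain), were present in each library. Each was lower in both knockout libraries and 8 of the 10 fell (limma adjusted p under 0.05), with summed counts of 184719 and 141274 against 456051 and 431825. Acta2 counts were 41201 and 33544 against 157904 and 150117, or -2.05 (SE 0.16) on the log2 scale. Of 12 macrophage markers 11 rose (limma adjusted p under 0.05), with sums of 13121 and 17364 against 1240 and 3479. Endothelial markers rose in 5 of 9 (10802 to 12556 against 4627 to 6954), adipocyte markers in 5 of 7 (10591 to 11090 against 1353 to 3928), fibroblast markers in 1 of 8 (37482 to 49294 against 13424 to 26392) and Schwann cell markers in 1 of 4 (515 to 577 against 192 to 400). No marker of these 5 types fell, and none of the 7 tested striated muscle markers passed. Over all tested genes 9.58% rose, 6.70% fell and 32.1% were lower with groups that did not overlap. These calls depend on the settings: limma called no gene with no filter, and none without the intensity trend. The part of the cell mix in the differences above was not tested.

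Each gene was also set against each of the 10 smooth muscle markers within a library. The ratio of Mylk4 was lower in both knockout libraries against all 10 markers. Per 100 counts of Acta2, the marker with the most negative log2 fold change, Mylk4 had 2.65 and 3.05 counts in knockout libraries, compared with 9.36 and 9.01 in wild-type ones. The ratio of Ppp1r14a was lower against 9 markers and higher against 1, and that of Ppp1r12b lower against 7 and higher against 1. For Mylk the result turned on the marker: it was lower against 4, higher against 3 and overlapping against 3. Per 100 counts of Myh11 there were 23.9 and 23.4 of Mylk in knockout libraries, compared with 20.1 and 17.0 in wild-type ones, but per 100 counts of Synpo2 there were 36.7 and 39.1 against 61.1 and 54.1. Ppp1r12a, Ppp1cb and Ppp1r12c were mostly higher relative to the markers, against 8, 9 and 6 of the 10. The markers were themselves lower in the knockout, with a median log2 fold change of -0.99 against -0.02 for all tested genes. A gene equal in both groups would therefore also stand higher relative to them. The share of all tested genes with such ratios was not computed.

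**Figure D3:**
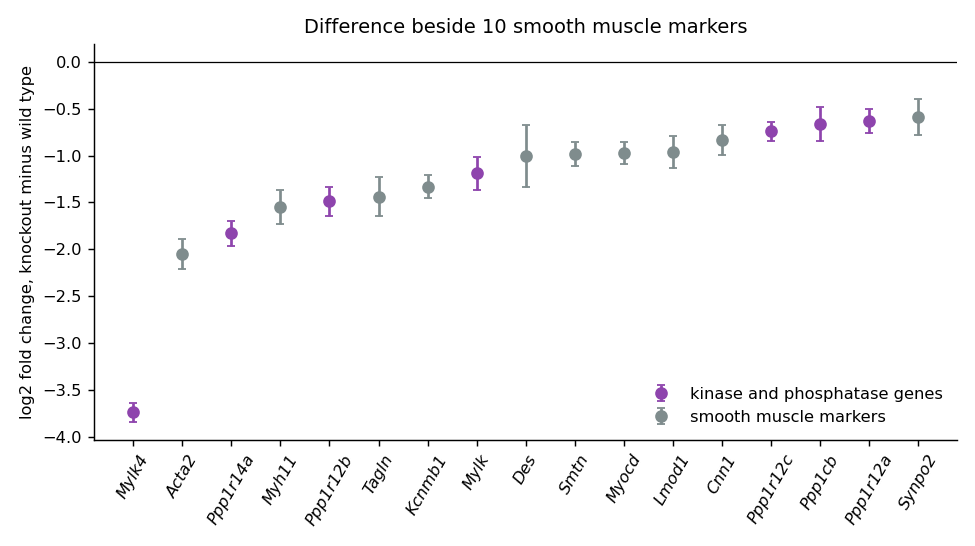
Log2 fold change (knockout minus wild type, points) with its SE (bars) for the 7 genes above the filter (purple) and 10 smooth muscle markers (grey), ordered by value. Mylk4 at -3.74 lies below every marker, and Ppp1r12c, Ppp1cb and Ppp1r12a lie above 9 of the 10.

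Other genes of the pathway were taken from 5 lists by role and tested. The lists were drawn up with earlier results of these data known, so their counts are no independent evidence of a direction. Over the lists 54 genes passed the filter, of which 6 rose and 14 fell at an adjusted p under 0.05 (limma, Benjamini-Hochberg over all 15058 genes). Over all tested genes 9.58% rose and 6.70% fell. The median log2 fold change of the lists was -0.12. With no filter, limma called none of the 54 (30 had an unadjusted p under 0.05), and likewise none without the intensity trend (24), without wild-type replicate 1 (20), or without replicate 1 (26) or 2 (27) of the knockout. It called 1 higher and 5 lower without wild-type replicate 2.

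Of 12 other kinases that can phosphorylate the light chain or the phosphatase, 3 fell, 1 rose and 8 did not pass, while 2 fell and 2 rose when the libraries were scaled to the same total. Rock1, which encodes a kinase of the targeting subunit, was at 8579 and 9080 in knockout libraries, compared with 24730 and 24829 in wild-type ones, giving -1.49 on the log2 scale (SE 0.10, adjusted p = 0.00478 by limma). Rock2, its close relative, fell by 0.44 on that scale (SE 0.10, adjusted p = 0.0407 by limma), a call lost at the same total (adjusted p = 0.0537) and after quantile normalization (adjusted p = 0.0648). The difference between the changes of Rock1 and Rock2 was not tested. Dapk2, a death-associated kinase gene, had 76 and 40 against 297 and 194 counts (log2 fold change -2.10, limma adjusted p = 0.0207). The riser was Cit, which encodes citron kinase, known for its work in cell division, at 133 and 190 against 15 and 30.

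Among 9 tested genes of other catalytic subunits, targeting subunits and inhibitors, 2 rose and 1 fell, and 1 rose after quantile normalization, when the call of Ppp1r14b was lost (limma adjusted p = 0.0683). Ppp1ca, the α catalytic subunit, was at 955 and 935 against 676 and 696 (limma log2 fold change 0.46 with SE 0.11 and adjusted p = 0.0402), and opposite-strand genes overlap 16.5% of its exon length. Per kb, Ppp1ca made up 27.6% and 33.6% of the 3 catalytic subunit genes in knockout libraries, compared with 16.6% and 18.0% in wild-type ones. Ppp1cb was the most abundant of the 3 in each library, at 68.2% and 60.1% against 79.6% and 78.4%. The relatives of the inhibitor gene Ppp1r14a moved in both directions. Ppp1r14b rose (88 and 82 against 36 and 22, log2 fold change 1.56), while Ppp1r14c, of which 29.2% of the exon length is overlapped on the opposite strand, fell (53 and 48 against 111 and 152, log2 fold change -1.35). Ppp1r16b, a targeting subunit gene best known from endothelium, was at 85 and 129 against 23 and 54 and did not pass (limma adjusted p = 0.0795). In the same libraries 5 of 9 endothelial markers rose.

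Genes that carry RhoA, protein kinase C and cyclic GMP signals to the phosphatase mostly did not pass: 12 of 16 missed the threshold, 2 rose and 2 fell. Arhgap42, a smooth muscle GTPase-activating protein gene that restrains RhoA, was at 633 and 596 against 269 and 312 (limma log2 fold change 1.08 with SE 0.14 and adjusted p = 0.0110). Prkca, which encodes protein kinase Cα, a kinase of CPI-17, was at 1256 and 1127 against 776 and 834 (limma log2 fold change 0.56 with SE 0.12 and adjusted p = 0.0290). The cyclic GMP-dependent kinase gene Prkg1 fell from 1834 and 1771 to 1002 and 755 counts, and Mrvi1, which encodes its substrate at the calcium store, from 15615 and 11631 to 7998 and 5347. Rhoa itself, named after its values were seen, was at 5604 and 5420 against 4452 and 4921 (limma adjusted p = 0.179).

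On the calcium side, 4 of 8 genes fell. Itpr1, the inositol trisphosphate receptor gene, was at 8574 and 7527 against 17319 and 16976 (limma log2 fold change -1.09 with SE 0.11 and adjusted p = 0.00802). Camk2g, a calmodulin-dependent kinase gene, had a log2 fold change of -1.21, the caldesmon gene Cald1 one of -0.62 and the L-type calcium channel gene Cacna1c one of -0.39. The call of Cacna1c was lost at the same total (limma adjusted p = 0.0816), and those of Cacna1c (0.0566) and Cald1 (0.0820) after quantile normalization.

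Among 9 myosin subunit genes, 4 fell and 1 rose. The substrate itself, the regulatory light chain gene Myl9, was at 8253 and 6241 in knockout libraries, compared with 25283 and 24344 in wild-type ones (limma log2 fold change -1.79 with SE 0.16 and adjusted p = 0.00619). Myh11 had a log2 fold change of -1.55 and the nonmuscle heavy chain gene Myh10 one of -1.59, while Myh9, another nonmuscle heavy chain gene, rose with one of 0.80. The remaining gene that fell, Myl6, an essential light chain gene named after its values were seen, had one of -0.97. In the same libraries as each of these lists 11 of 12 macrophage markers rose and 8 of 10 smooth muscle markers fell, and the part of the cell mix was not tested.

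**Figure D4:**
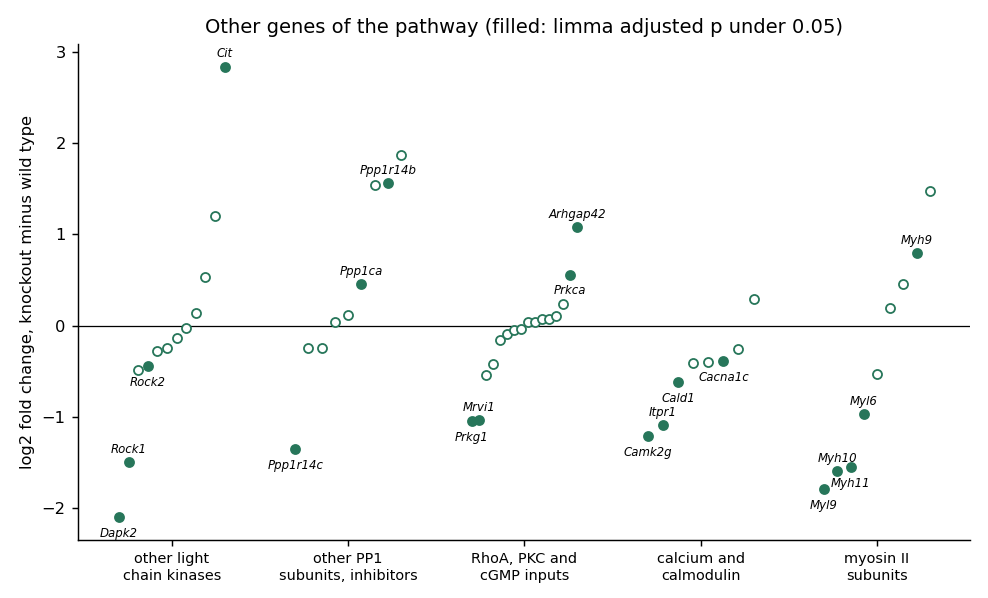
Log2 fold change (knockout minus wild type) of the 54 tested pathway genes outside the kinase and phosphatase set, in 5 lists by role, 1 point per gene. Filled, named points passed limma at an adjusted p under 0.05: 14 of them lie below 0, with Dapk2 lowest at -2.10, and 6 above, with Cit highest at 2.84.

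The genes most like Mylk and Mylk4 were taken by the Euclidean distance between log2 values centred on each gene's mean over the 4 libraries, among 10856 genes. Nearest to Mylk was Plcl1, a phospholipase C-like gene, at 310 and 247 in knockout libraries, compared with 701 and 577 in wild-type ones (distance 0.0637). Abat (0.0846), a GABA transaminase gene, and Gpsm2 (0.0933), a G-protein modulator gene, followed. Mylk4 had no gene as near. Its closest was Fam19a1, at 21 and 15 against 350 and 192 (distance 0.583), followed by the receptor phosphatase gene Ptprz1, at 857 and 525 against 11638 and 11745 (0.585), and Rab9b, at 14 and 9 against 101 and 111 (0.733). The measure rests on 4 libraries and depends on the size of the group difference. By that size Mylk4 stood 14th and Mylk 584th from the most negative, so fewer genes could lie near Mylk4.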

How the data were processed

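Ribosome-depleted total RNA from aortic smooth muscle cells was made into stranded libraries, per the labels' protocols. Per the submitters' processing notes, the tools were DESeq2 1.14.1, featureCounts 1.5.1 of Subread, STAR 2.5.2b and FastQC, listed without roles, with mm10 (GRCm38) as the build. For the strand setting, annotation and filters of the counting, the choice is not given in the sources used here. The values the authors deposited were treated as a score: read counts normalized between libraries and rounded to whole numbers, 1 column per library.

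From the spacing of the rounded values, size factors were estimated at 0.887 and 0.890 in knockout libraries, compared with 1.10 and 1.16 in wild-type ones. No count model was used. Values were analysed as log2(value + 1) with limma 3.58.1 in R 4.3.3, on the 15058 genes with a mean of at least 10, with group as the only term and an intensity trend. P-values are two-sided and Benjamini-Hochberg adjusted over all tested genes, with a threshold of 0.05. An SD is taken over 2 libraries, and SEs are limma's. The test and the size factor estimate were tested on simulated data. Exon lengths and overlaps come from GENCODE M21 (GRCm38), and start regions from RefSeq. Named genes outside the set are Yap1, Wwtr1, Acta2, Myh11, the up to 4 genes of each pathway list with the smallest p, any that rose against a falling majority, and the 3 genes nearest to Mylk and to Mylk4 with a mean of at least 50. The set and the lists were chosen with earlier results of these data known. Values of some list genes are not reported here. TMM factors were computed in R from the trimmed mean formula, with knockout library 1 as the reference.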

Additional observations from a re-analysis of the deposited data

How the results depend on the processing

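The 12 alternatives were another pseudocount (5), no filter or a filter at a mean of 50, no intensity trend, the same total, TMM factors, quantile normalization, a replicate block, and each library left out. All 7 tested kinase and phosphatase genes stayed lower under each of them, and 4 of the 7 had a log2 fold change of -1 or lower, except after quantile normalization and without knockout replicate 2, where 3 did. The median of -1.19 was -0.95 after quantile normalization and ran from -1.40 to -0.98 with 1 library left out. Mylk4 ranged from -3.81 to -3.65. Quantile normalization moved the median of all tested genes to -0.10. Over all genes limma called 1443 higher and 1009 lower, but 0 and 0 without the filter (5472 at an unadjusted p under 0.05) and 0 and 0 without the trend (4274). With 1 library left out, the lone library of a group being assumed to vary like the other group, the calls ran from 0 to 587 higher and from 0 to 153 lower (2671 to 3824 at an unadjusted p under 0.05). For the pathway genes, 6 higher and 14 lower became 0 and 0 without the filter and without the trend, and ran from 0 to 1 higher and from 0 to 5 lower with 1 library left out. Of 348 refitted values of 29 other named genes, 188 kept their direction and side of the threshold, 158 lost the threshold, 2 gained it and 0 reversed. The labels do not pair libraries by number, and the deviations of same-numbered libraries correlated at 0.118 over genes. With the replicate block, limma called 1823 genes higher and 1213 lower, and 7 and 17 pathway genes. Each group has 2 libraries, which limits every value here.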

Other observations

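The nearest protein-coding gene on each side of the 8 genes was read from GENCODE M21, a choice made after the data had been seen. Of these 16 neighbours 3 fell, 1 rose and 12 did not pass (limma, adjusted over all tested genes), with a median log2 fold change of -0.57. Over all tested genes 6.70% fell and 9.58% rose, with a median of -0.02. With no filter limma called no gene (5472 had an unadjusted p under 0.05), and none without the intensity trend (4274 had one). Pawr, which encodes the pro-apoptotic protein Par-4 and lies 47.6 kb from Ppp1r12a, was at 1205 and 898 in knockout libraries, compared with 3682 and 3287 in wild-type ones (limma log2 fold change -1.74 with SE 0.16 and adjusted p = 0.00701). Spint2, a protease inhibitor gene 7.4 kb from Ppp1r14a, was at 167 and 123 against 632 and 472 (limma log2 fold change -1.92 with SE 0.23 and adjusted p = 0.00956). Plb1, a phospholipase gene 92.3 kb from Ppp1cb, fell with a log2 fold change of -1.79 (limma adjusted p = 0.0308). Hacd2, 20.0 kb from Mylk, rose with one of 0.89 (limma adjusted p = 0.0176). Beside Mylk4 the neighbours did not pass: Wrnip1, 18.1 kb away, was at 410 and 346 against 426 and 394, and Gmds, 362 kb away, at 189 and 207 against 196 and 196.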
